A study of Homo sapiens with 20 samples.

Results

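Genes that make, store, release, take up and break down catecholamines were followed in the human neuroblastoma line IMR-32, whose MYCN oncogene is amplified. They were the 10 genes TH, DDC, DBH, GCH1, SLC18A1, SLC18A2, CHGA, CHGB, SLC6A2 and MAOA, taken by symbol from the 58787 genes of the count table. All 10 were in the table, 8 of them had enough counts to be tested among 13729 genes, and TH and SLC18A1 did not. The study treated adherent cells for 24 h before RNA was taken, in 5 groups of 4 libraries, and its title speaks of inhibiting CHK1 together with MUS81. The groups were Dyngo-4a with prexasertib (the combination), prexasertib alone at 2 nM, Dyngo-4a alone at a low dose of 1 µM, Dyngo-4a alone at a high dose of 2.26 µM, and the vehicle DMSO. The doses within the combination are not given for its samples. Prexasertib inhibits the checkpoint kinase CHK1, and Dyngo-4a was developed against dynamin, the GTPase that pinches off endocytic vesicles. All groups are the same wild-type cell line, in the labels' batch 1, so they describe 1 tumour-derived line.

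Catecholamine synthesis starts when tyrosine hydroxylase, TH, makes L-DOPA with tetrahydrobiopterin as its cofactor, whose own synthesis begins with GCH1. DDC turns L-DOPA into dopamine, vesicular transporters load it into granules that also hold the chromogranins, and DBH makes noradrenaline inside those granules. After release SLC6A2 takes noradrenaline back up and MAOA degrades it, and neuroblastomas, which come from the sympathetic lineage, are known for releasing catecholamine metabolites.

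The libraries held 3960885 to 6537843 counts from a 3′ mRNA assay. CPM here means counts relative to the library's total over the tested genes multiplied by its TMM factor, a scaling factor estimated across genes. A count of 0 allows up to 3 counts, which was 0.470 to 0.752 CPM depending on the library and covers counting error only. The labels give the tissue as brain and the cell type as neuroblast. All 8 sympathetic neuroblast markers were tested and summed to 6240 to 7291 CPM over the 20 libraries, whereas of 4 cortical neuron markers only SLC17A7 was tested, TBR1 and GAD2 were at 0, and the sum was at most 4.77 CPM. Of 8 mesenchymal neuroblastoma markers 6 were tested, with a summed level of 336 to 370 CPM at the high dose, 272 to 319 CPM in the combination and 300 to 374 CPM in DMSO, and PRRX1 was at 0. TWIST1 made up most of that sum, 311 ± 20.1 CPM at the high dose and 277 ± 33.6 CPM in DMSO (SD, n = 4 each). At the high dose SNAI2 was higher, at 18.2 ± 1.95 CPM against 9.52 ± 1.40 CPM in DMSO (adjusted p = 0.000346 by edgeR), and COL1A1 was lower, at 18.8 ± 5.45 CPM against 32.1 ± 3.21 CPM in DMSO (adjusted p = 0.00153); the other 4 tested mesenchymal markers did not pass, and the part of these markers in the results was not tested. In the same comparison 25.2% of all tested genes had an adjusted p of at most 0.05. Of the 8 sympathetic neuroblast markers 3 were called higher and 3 lower there. Of the Schwann and glial markers 1 of 9 was tested with SOX10 at 0, of the adrenal cortex markers 0 of 4, and of the leukocyte markers 1 of 3. The libraries also fell apart by replicate number, with replicates 1 and 3 of every group on 1 side of the second principal component and replicates 2 and 4 on the other. Results are therefore also given within each of these subsets, whose source is not given in the labels. MALAT1, a nuclear non-coding RNA, took 2.80% to 3.15% of the counts at the high dose, 1.74% to 2.92% in the combination and 0.941% to 1.76% in DMSO. Among the DMSO libraries it took 1.76% and 1.67% in replicates 1 and 3, and 1.05% and 0.941% in replicates 2 and 4. Its part in the results below was not tested.

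Promoter sequences from RefSeq (GRCh38.p14) were matched for 5 of the 10 genes, DBH, DDC, SLC18A2, CHGA and MAOA. Each entry holds 250 bases before the RefSeq start and 50 from it on, 5′ to 3′ on the gene's strand. CHGA (chr14:92922900-92923199, plus strand), SLC18A2 (chr10:117240864-117241163, plus strand) and DBH (chr9:133636113-133636412, plus strand) are shown because they were the matched genes with any of the motifs searched, and because CHGA and DBH were lower at the high dose. Capitals mark matches to the cyclic AMP response element TGACGTCA and to the shorter TGACG, searched on both strands.
CHGA: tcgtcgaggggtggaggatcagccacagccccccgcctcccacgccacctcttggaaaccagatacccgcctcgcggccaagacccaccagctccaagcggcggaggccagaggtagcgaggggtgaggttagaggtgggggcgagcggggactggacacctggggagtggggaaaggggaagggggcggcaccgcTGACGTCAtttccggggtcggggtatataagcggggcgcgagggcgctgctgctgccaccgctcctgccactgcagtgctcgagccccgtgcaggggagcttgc
SLC18A2: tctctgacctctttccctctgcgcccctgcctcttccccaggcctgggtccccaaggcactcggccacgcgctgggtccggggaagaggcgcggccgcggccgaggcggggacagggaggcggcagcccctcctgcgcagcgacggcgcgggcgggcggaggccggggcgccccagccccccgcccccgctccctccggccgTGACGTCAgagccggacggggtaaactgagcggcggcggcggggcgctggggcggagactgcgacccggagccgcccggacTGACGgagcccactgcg
DBH: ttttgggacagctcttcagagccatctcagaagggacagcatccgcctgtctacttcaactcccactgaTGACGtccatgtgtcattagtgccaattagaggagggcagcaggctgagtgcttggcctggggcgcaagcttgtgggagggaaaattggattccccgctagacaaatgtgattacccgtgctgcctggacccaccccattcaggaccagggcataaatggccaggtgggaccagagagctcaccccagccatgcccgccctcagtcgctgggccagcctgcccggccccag
The full element TGACGTCA lay 54 bases before the start of CHGA and 48 bases before that of SLC18A2, and 1.85% of the 35116 RefSeq promoters held it. The shorter TGACG lies inside the full element on both strands, so those matches overlap, and it was also found 181 bases before the start of DBH and at base 34 after that of SLC18A2. Of all promoters 24.6% held TGACG. The E-box CACGTG (7.26% of promoters), the ATF4 composite core TGATGNAA (3.62%) and the TATA box TATAAA (11.5%) had no match in the entries of these 5 genes. These matches describe the letters in the windows and no binding was measured.

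**Figure D1:**
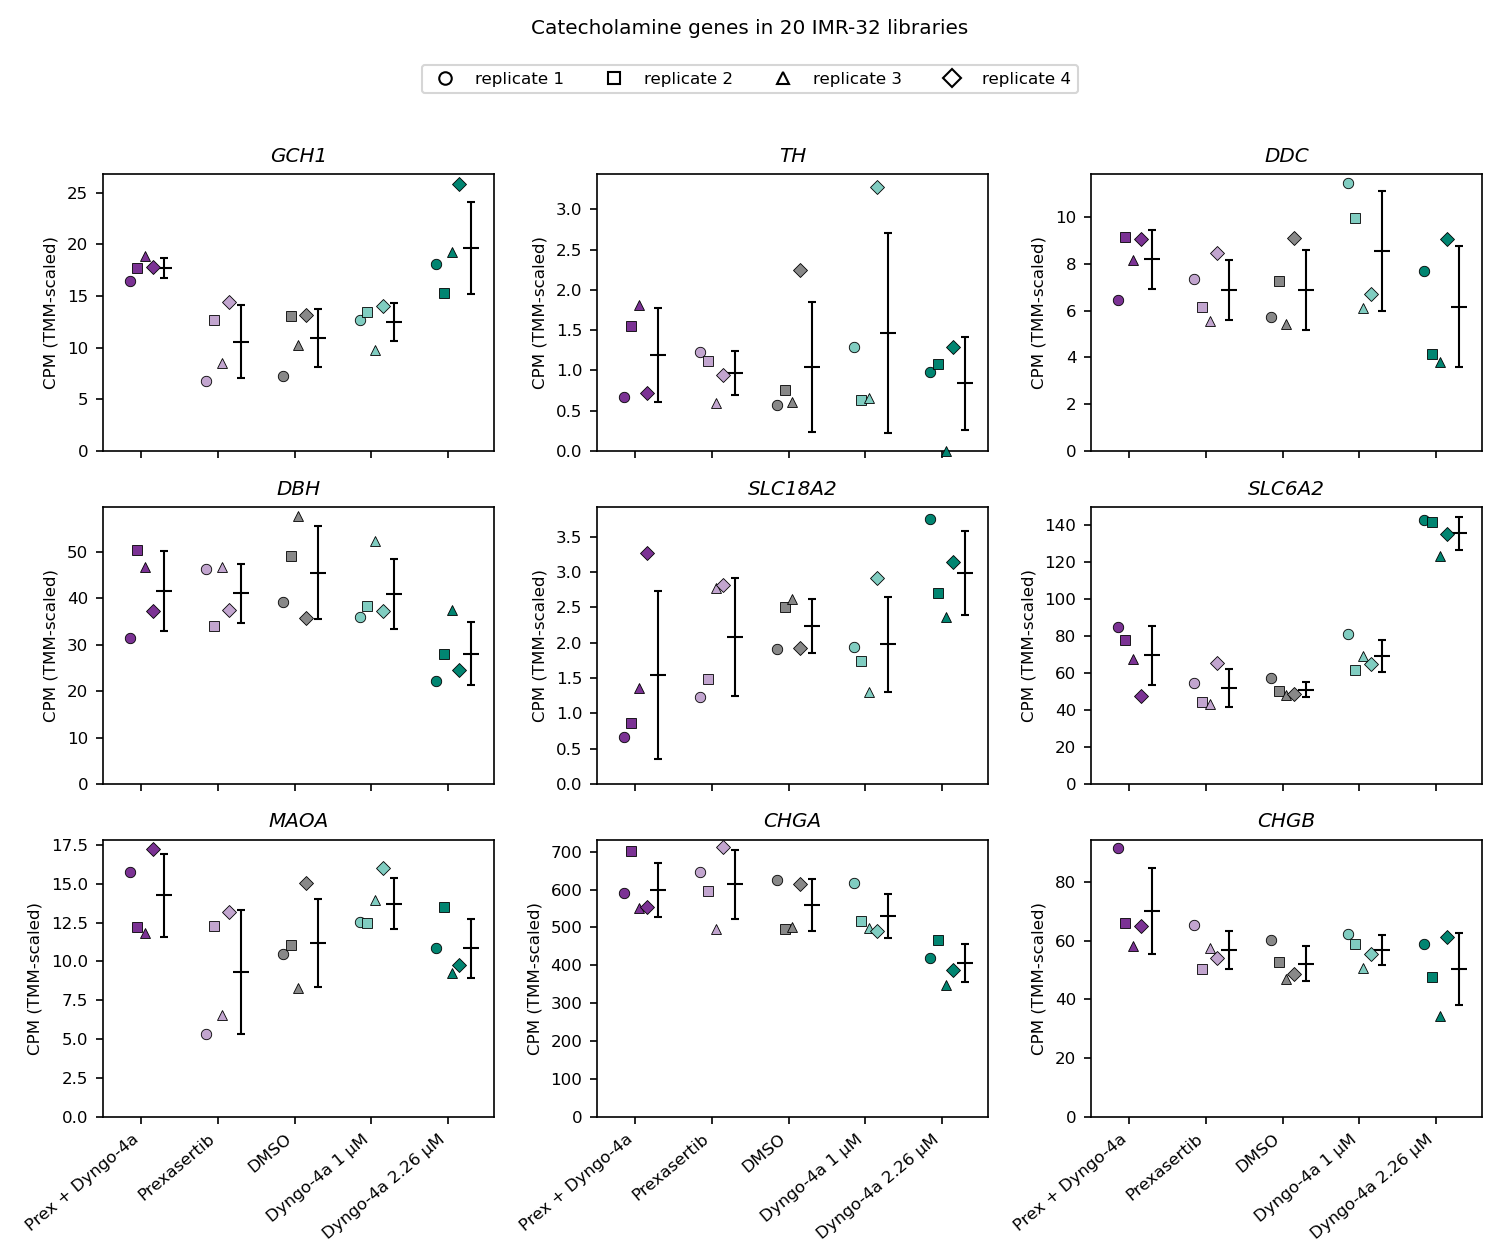
Level of each catecholamine gene in every library, in CPM on the vertical axis, with the combination, prexasertib, DMSO and the 2 Dyngo-4a doses on the horizontal axis. Markers stand for the 4 replicates and the black bar for the mean ± SD. SLC6A2 was at 123 to 143 CPM at the high dose and at 48.2 to 57.1 CPM in DMSO, and TH lay at 0 to 3.27 CPM in all 20 libraries.

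The first enzyme of the pathway was barely detected. TH (chr11:2163929-2171877, minus strand, GRCh38 in GENCODE 29) had 117 counts over all 20 libraries. It had 3, 9, 8 and 4 counts in the combination, 6, 6, 3 and 6 with prexasertib, 6, 4, 3 and 18 at the low dose and 5, 6, 0 and 7 at the high dose, against 3, 3, 3 and 14 in DMSO. The ranges of all 5 groups overlapped and most libraries lay near the floor. Mean levels were 1.19 ± 0.581 CPM in the combination, 0.970 ± 0.277 CPM with prexasertib, 1.46 ± 1.24 CPM at the low dose and 0.840 ± 0.574 CPM at the high dose, against 1.04 ± 0.803 CPM in DMSO (SD, n = 4 each). No difference from DMSO was detectable at this depth, with two-sided exact permutation p-values of 0.8 for the combination, 0.943 for prexasertib, 0.571 for the low dose and 0.686 for the high dose, where 0.0286 is the smallest p that 4 against 4 libraries allow. Adjusted over the 4 comparisons each became 0.943.

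Of the 2 vesicular monoamine transporters, the form known from endocrine cells was not found beyond a single count. SLC18A1 (chr8:20144855-20183206, minus strand) had 1 count in combination replicate 4 and 0 in the other 19 libraries, each of which allows up to 3 counts. The form known from neurons, SLC18A2 (chr10:117241073-117279430, plus strand), was low but had counts in every library, 1.54 ± 1.19 CPM in the combination, 2.08 ± 0.837 CPM with prexasertib, 1.97 ± 0.677 CPM at the low dose and 2.99 ± 0.599 CPM at the high dose, against 2.24 ± 0.379 CPM in DMSO. It overlaps PDZD8 on the opposite strand, which had 4970 counts in all. The sources used here do not say whether counting used the strand, so reads of the pair cannot be told apart.

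The other enzymes and the granule proteins were clearly measured. In DMSO the level of DBH was 45.5 ± 10.0 CPM, that of DDC 6.89 ± 1.70 CPM, that of GCH1 10.9 ± 2.79 CPM and that of MAOA 11.2 ± 2.83 CPM (SD, n = 4). The chromogranins CHGA and CHGB stood at 559 ± 69.5 CPM and 52.1 ± 5.91 CPM, and the noradrenaline transporter SLC6A2 at 51.0 ± 4.19 CPM. DDC (chr7:50458436-50565457, minus strand) overlaps FIGNL1 on the same strand, which had 4839 counts in all, so how reads were shared between them is uncertain. The other overlaps carried few counts, 68 for the antisense DBH-AS1 and 141 for AC136621.1, which lies on the strand of SLC6A2.

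At the high dose of Dyngo-4a some members were higher than in DMSO and others lower. The noradrenaline transporter SLC6A2 and the cofactor enzyme GCH1 rose, while DBH, the enzyme that makes noradrenaline, and the granule protein CHGA fell. SLC6A2 was 2.66-fold and GCH1 1.80-fold the DMSO level, and DBH and CHGA were at 0.621 and 0.724 of it. Of the 8 tested members 2 were higher and 2 lower in edgeR's quasi-likelihood test at an adjusted p of 0.05, beside 25.2% of all tested genes called in this comparison, 12.5% higher and 12.7% lower. The median log2 fold change of the 8 members was −0.05, against 0.00 over all tested genes.

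Among the genes of synthesis, GCH1 (chr14:54842008-54902852, minus strand), GTP cyclohydrolase, had 18.1, 15.3, 19.2 and 25.8 CPM at the high dose, against 7.23, 13.0, 10.3 and 13.1 CPM in DMSO. Every high-dose library lay above every DMSO library. The log2 fold change was 0.85 ± 0.21 (SE, adjusted p = 0.002). It was 1.10 within replicates 1 and 3 and 0.64 within replicates 2 and 4, where the adjusted p was 0.0806; over all 19 alternatives the adjusted p ran from 5.26e-05 to 0.0806.

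DBH (chr9:133635348-133659344, plus strand), dopamine β-hydroxylase, had 22.3, 27.9, 37.5 and 24.5 CPM at the high dose, against 39.2, 49.1, 57.8 and 35.7 CPM in DMSO. High-dose replicate 3 lay above the lowest DMSO library, so the groups overlapped, and in both groups replicate 3 was the highest. The log2 fold change was −0.69 ± 0.17 (SE, adjusted p = 0.00408 by edgeR). It was −0.68 within replicates 1 and 3, where the adjusted p was 0.162, and −0.69 within replicates 2 and 4; the adjusted p ran from 2.20e-06 to 0.162 over the 19 alternatives. DDC, the decarboxylase that makes dopamine, had 7.69, 4.14, 3.81 and 9.04 CPM at the high dose against 5.71, 7.27, 5.44 and 9.13 CPM in DMSO, with overlapping groups. Its log2 fold change of −0.17 did not pass the test (95% interval −0.75 to 0.41, adjusted p = 0.699).

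Of the storage genes, CHGA (chr14:92923080-92935293, plus strand), chromogranin A, a core protein of the secretory granule, had 420, 466, 348 and 387 CPM at the high dose and 625, 497, 501 and 613 CPM in DMSO. Every high-dose library lay below every DMSO library, with a log2 fold change of −0.47 ± 0.11 (SE, adjusted p = 0.00171 by edgeR). It was −0.55 within replicates 1 and 3 and −0.39 within replicates 2 and 4, where the adjusted p was 0.0513; the range over the 19 alternatives was 2.13e-05 to 0.0513. CHGB (chr20:5911430-5925361, plus strand), chromogranin B, had 58.8, 47.5, 34.3 and 61.1 CPM at the high dose against 60.1, 52.9, 47.0 and 48.5 CPM in DMSO. Its groups overlapped and the log2 fold change of −0.05 did not pass the test (95% interval −0.36 to 0.26, adjusted p = 0.846). Whether the responses of the 2 chromogranins differ was not tested. SLC18A2 did not pass either (log2 fold change 0.42, 95% interval −0.47 to 1.31, adjusted p = 0.503).

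SLC6A2 (chr16:55655604-55706192, plus strand) had 143, 141, 123 and 135 CPM at the high dose, against 57.1, 50.4, 48.2 and 48.3 CPM in DMSO. The groups lay far apart, with no library of either group between 57.1 and 123 CPM. The log2 fold change was 1.41 ± 0.14 (SE, 95% interval 1.12 to 1.70, adjusted p = 1.75e-09 by edgeR). It was 1.34 within replicates 1 and 3 and 1.47 within replicates 2 and 4, past the threshold in both. MAOA (chrX:43654907-43746824, plus strand), the monoamine oxidase of the outer mitochondrial membrane, had 10.8, 13.5, 9.25 and 9.78 CPM at the high dose against 10.5, 11.03, 8.26 and 15.05 CPM in DMSO. Those groups overlapped, and the log2 fold change of −0.06 did not pass the test (95% interval −0.54 to 0.43, adjusted p = 0.886).

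The 4 calls at the high dose were kept when any 1 of the 8 libraries of these groups was left out. In a bulk assay fewer cells of a kind and less RNA per cell cannot be told apart. Nothing in the labels says that the 4 libraries of a group were separate cultures, so the p-values measure the spread between libraries, which may be technical.

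**Figure D2:**
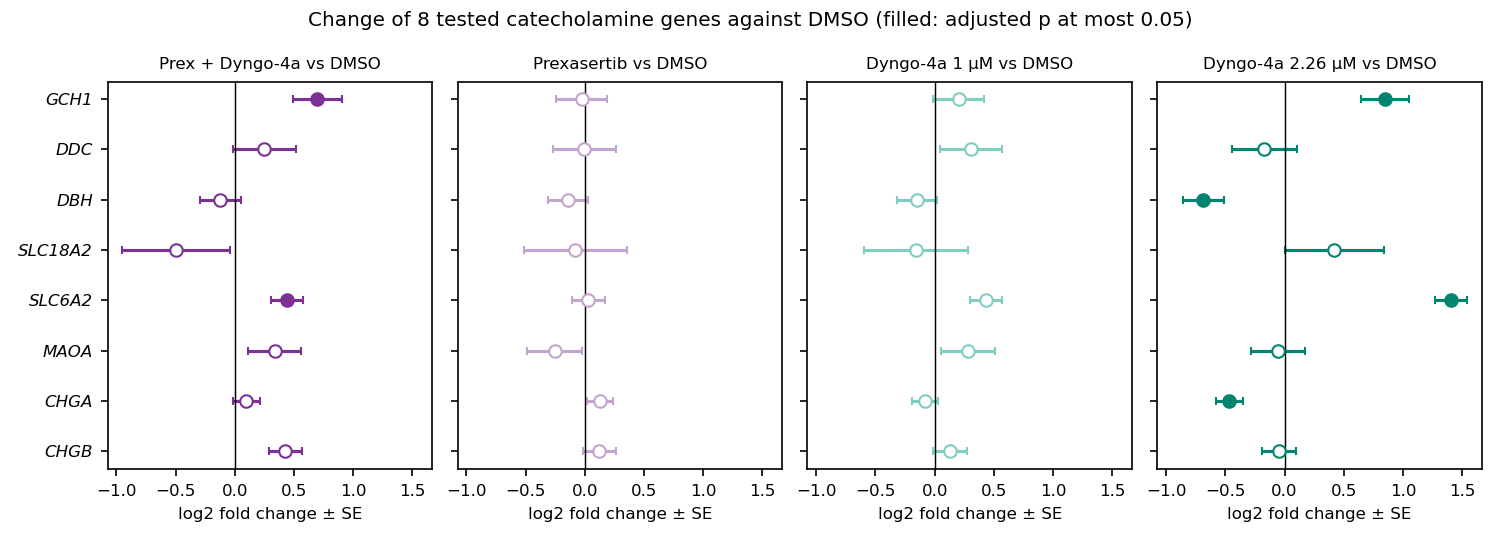
Log2 fold change of the 8 tested catecholamine genes in each comparison with DMSO, with bars for the SE; filled markers passed an adjusted p of 0.05 in edgeR's quasi-likelihood test. SLC6A2 stood at 1.41 at the high dose and at 0.44 both at the low dose and in the combination, and GCH1 at 0.85 at the high dose and 0.70 in the combination.

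**Figure D3:**
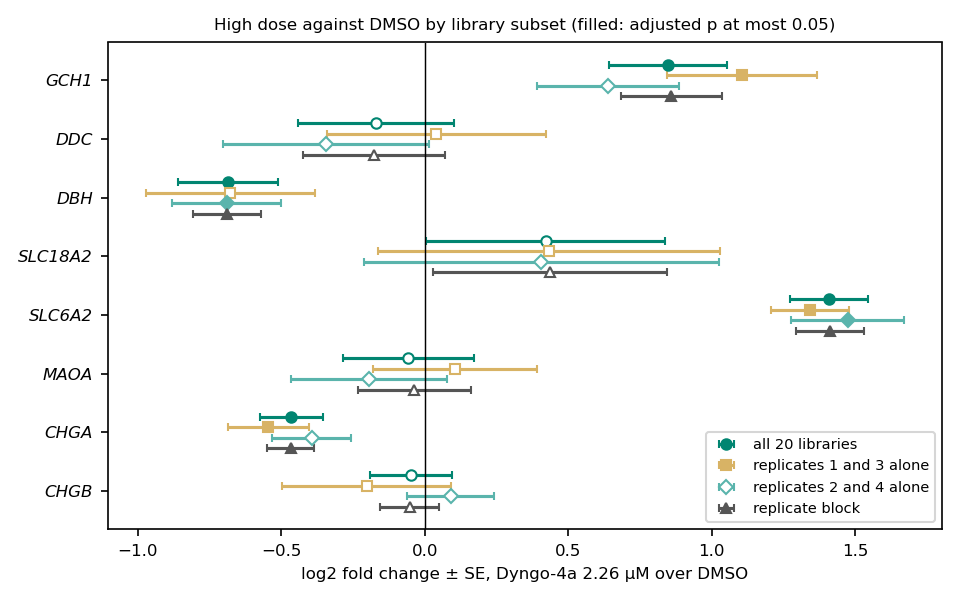
Log2 fold change at the high dose against DMSO, fitted on all 20 libraries, within replicates 1 and 3, within replicates 2 and 4, and in a fit blocked by replicate number, with bars for the SE and filled markers past an adjusted p of 0.05. For SLC6A2, GCH1, DBH and CHGA the direction was the same in both subsets, and SLC6A2 passed the test in both.

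At the low dose none of the members passed the test. edgeR's quasi-likelihood test called 0 of 8, beside 0.262% of all tested genes, 36 in number; 1 member, SLC6A2, had an unadjusted p under 0.05, and DESeq2 and limma-voom called 0. SLC6A2 had 81.1, 61.4, 69.3 and 64.7 CPM at the low dose and 57.1, 50.4, 48.2 and 48.3 CPM in DMSO. All low-dose libraries lay above all DMSO libraries, yet the log2 fold change of 0.44 ± 0.14 (SE) had an adjusted p of 0.332, and its range over the 19 alternatives was 0.0607 to 0.939. The 36 genes became 22 without DMSO replicate 2 and without DMSO replicate 4, 18 when replicate 1 of the low dose was left out and 14 when its replicate 3 was. The other 7 log2 fold changes lay between −0.16 for SLC18A2 and 0.31 for DDC. CHGA (−0.08, 95% interval −0.31 to 0.16) and DBH (−0.15, 95% interval −0.51 to 0.22) did not pass.

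The doses were also compared with each other, and the same 4 genes differed in the same directions. Against the low dose the high dose had 4 of 8 members past the test, SLC6A2 and GCH1 higher and DBH and CHGA lower, beside 20.2% of all tested genes, 10.1% in each direction. The levels of SLC6A2 in DMSO, at the low dose and at the high dose were 51.0 ± 4.19, 69.1 ± 8.64 and 135 ± 8.90 CPM (SD, n = 4 each), and the log2 fold change of the high against the low dose was 0.97 ± 0.13 (SE, adjusted p = 2.08e-06 by edgeR). CHGA stood at 559 ± 69.5, 530 ± 58.3 and 405 ± 50.1 CPM, DBH at 45.5 ± 10.0, 41.0 ± 7.59 and 28.1 ± 6.72 CPM, and GCH1 at 10.9 ± 2.79, 12.5 ± 1.86 and 19.6 ± 4.46 CPM in the same order of doses. For SLC6A2, CHGA and GCH1 the high-dose libraries did not overlap those of the low dose, whereas for DBH they did.

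The other 3 calls between the doses rested on more fragile margins when libraries were left out or subsets were used. A fit blocked by replicate number, which paired the libraries in this comparison, kept all 4 calls. That fit called 3980 of the 13729 tested genes. The log2 fold change of CHGA was −0.39 ± 0.11 (SE, adjusted p = 0.0107), with adjusted p-values of 0.067 without low-dose replicate 1 and 0.058 without high-dose replicate 3. That of GCH1 was 0.65 ± 0.20 (SE, adjusted p = 0.0198), with 0.0701 without low-dose replicate 3 and 0.105 without high-dose replicate 4. That of DBH was −0.54 ± 0.18 (SE, adjusted p = 0.0283), and the call was lost without low-dose replicate 2 (0.05003), low-dose replicate 3 (0.114), or high-dose replicate 1 (0.0947), replicate 2 (0.0621) or replicate 4 (0.0959). Within replicates 1 and 3 the values were −0.52 for CHGA, 0.75 for GCH1 and −0.54 for DBH, and within replicates 2 and 4 they were −0.25, 0.57 and −0.54; of these only CHGA in replicates 1 and 3 passed. The ranges of the adjusted p over all 19 alternatives were 0.000347 to 0.259 for CHGA, 0.00236 to 0.132 for GCH1 and 0.000198 to 0.324 for DBH.

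Prexasertib alone gave no call in this pathway. edgeR called 0 of the 8 members and 0% of all tested genes; 0 members had an unadjusted p under 0.05, and DESeq2 and limma-voom called 0. The log2 fold changes ran from −0.25 for MAOA to 0.13 for CHGA, each with an adjusted p of 1.00. The 95% interval was −0.27 to 0.33 for SLC6A2, −0.50 to 0.22 for DBH, −0.10 to 0.37 for CHGA and −0.49 to 0.44 for GCH1. SLC6A2 had 54.4, 44.2, 43.4 and 65.5 CPM with prexasertib, a range that enclosed the 48.2 to 57.1 CPM of DMSO.

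In the combination GCH1 and SLC6A2 rose against DMSO, and no member was called lower. Of the 8 members 2 were called, both higher, beside 6.3% of all tested genes (3.47% higher), and the median log2 fold change of the 8 was 0.29. GCH1 had 16.4, 17.7, 18.8 and 17.8 CPM in the combination and 7.23, 13.0, 10.3 and 13.1 CPM in DMSO. The 4 combination libraries lay close together and above all those of DMSO, with a log2 fold change of 0.70 ± 0.21 (SE, adjusted p = 0.035 by edgeR). SLC6A2 had 84.6, 77.9, 67.4 and 47.7 CPM in the combination and 57.1, 50.4, 48.2 and 48.3 CPM in DMSO. Combination replicate 4 lay below every DMSO library, so the groups overlapped, and the log2 fold change was 0.44 ± 0.14 (SE, adjusted p = 0.0482 by edgeR).

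Both calls lay near the threshold. That of GCH1 was lost without DMSO replicate 1 (adjusted p = 0.156) or replicate 3 (0.0821), or without combination replicate 1 (0.0541), 2 (0.0588), 3 (0.0882) or 4 (0.0642), and its log2 fold change was 1.01 within replicates 1 and 3 and 0.44 within replicates 2 and 4 (adjusted p = 0.487, the highest of its 19 alternatives; the lowest was 0.00263). That of SLC6A2 was lost without DMSO replicate 2 (0.104), 3 (0.108) or 4 (0.108), or without combination replicate 1 (0.194), 2 (0.126) or 3 (0.0807), and with library sizes alone as scaling (0.0693), limma-voom (0.0869) or only the compared groups in the fit (0.0636). The log2 fold change of SLC6A2 within replicates 2 and 4 was 0.35 (adjusted p = 0.512), and over its 19 alternatives the adjusted p ran from 0.00214 to 0.512.

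The other members did not pass against DMSO. CHGB had 91.4, 66.2, 58.1 and 65.1 CPM in the combination against 60.1, 52.9, 47.0 and 48.5 CPM in DMSO, with combination replicate 3 inside the DMSO range and a log2 fold change of 0.43 ± 0.14 (SE, adjusted p = 0.0668 by edgeR). It passed without DMSO replicate 1 (0.0475), without combination replicate 3 (0.0407), with no low-count filter (0.0229) and with the replicate block (0.00155), over a range of 0.00155 to 0.429. All 4 same-number differences of CHGB were positive, but replicate numbers were not read as pairing in this comparison. CHGA and DBH, the genes that were lower at the high dose, had log2 fold changes of 0.10 (95% interval −0.14 to 0.33) and −0.12 (95% interval −0.48 to 0.24) in the combination. MAOA, DDC and SLC18A2 had 0.34, 0.25 and −0.50, with adjusted p-values of 0.437, 0.654 and 0.595.

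The combination was next set against each drug alone. Against prexasertib GCH1 was higher in the combination, 1 of 8 members beside 3.44% of all tested genes (2.4% higher). Those were 472 genes, and 309 without combination replicate 1. It had 16.4, 17.7, 18.8 and 17.8 CPM in the combination and 6.75, 12.7, 8.52 and 14.4 CPM with prexasertib, without overlap, and a log2 fold change of 0.72 ± 0.21 (SE, adjusted p = 0.0404 by edgeR). The call of GCH1 was lost without prexasertib replicate 1 (0.172) or 3 (0.138), or without combination replicate 1 (0.0623), 2 (0.0713), 3 (0.104) or 4 (0.0717). Its log2 fold change was 1.20 within replicates 1 and 3 (adjusted p = 0.00437) and 0.38 within replicates 2 and 4 (0.656), where its libraries with prexasertib were the higher ones.

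With the replicate number as a block, which paired the libraries in this comparison, 4 members were called, all higher in the combination. Over the whole table the block called 1374 of the 13729 tested genes, 695 of them higher, against 472 without it. The blocked adjusted p was 0.00225 for GCH1, 0.0311 for SLC6A2, 0.0311 for MAOA and 0.0461 for CHGB, against 0.0897 for SLC6A2, 0.157 for MAOA and 0.276 for CHGB without the block. SLC6A2 was also called without prexasertib replicate 4 (0.0209) or combination replicate 4 (0.00587). Over the 19 alternatives the adjusted p ran from 0.00225 to 0.656 for GCH1, 0.0041 to 0.817 for SLC6A2, 0.0107 to 0.857 for MAOA and 0.0461 to 0.722 for CHGB. MAOA had 15.8, 12.2, 11.8 and 17.2 CPM in the combination and 5.32, 12.3, 6.54 and 13.2 CPM with prexasertib. Its log2 fold change was 1.21 within replicates 1 and 3 and 0.20 within replicates 2 and 4, and the difference between these subsets was not tested.

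Against the low dose of Dyngo-4a edgeR called 0 of 8 members, beside 3.85% of all tested genes; 2 members, GCH1 and CHGB, had an unadjusted p under 0.05, and DESeq2 and limma-voom called 0. GCH1 had 16.4 to 18.8 CPM in the combination and 9.80 to 14.0 CPM at the low dose, without overlap, with a log2 fold change of 0.50 ± 0.20 (SE, adjusted p = 0.213). SLC6A2 had nearly the same mean, 69.4 ± 16.1 CPM in the combination and 69.1 ± 8.64 CPM at the low dose, with a log2 fold change of 0.01 (95% interval −0.28 to 0.29). The interaction, the combination's difference from prexasertib less the low dose's difference from DMSO, takes the dose in the combination as the low one. It had 0 members called by edgeR, beside 0.284% of all tested genes; 0 had an unadjusted p under 0.05, and DESeq2 and limma-voom called 0. GCH1 had the value farthest from 0 among the 8, 0.52 ± 0.30 on the log2 scale (SE, adjusted p = 0.843).

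In the order of group means SLC6A2 stood highest at the high dose, then in the combination, at the low dose, with prexasertib and in DMSO, and only the high dose was clear of its neighbour. CHGA stood lowest at the high dose, which was clear of the low dose above it. For GCH1 the order was high dose, combination, low dose, DMSO and prexasertib; the combination was clear of the low dose but overlapped the high dose. For DBH, DDC, SLC18A2, CHGB and MAOA every pair of neighbouring groups overlapped. The summed level of the 10 genes, in which CHGA weighs most, was 751 to 937 CPM in the combination, 669 to 910 CPM with prexasertib, 690 to 835 CPM at the low dose and 577 to 719 CPM at the high dose, against 681 to 807 CPM in DMSO.

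Further genes of the pathway were read from lists of the pathway. Of 12 genes on the list of biopterin supply and catecholamine breakdown 7 were tested. The list also holds PNMT, the transporters SLC6A3 and SLC22A3 and the cytochrome CYB561. At the high dose 0 of the 7 were higher and 2 lower than in DMSO. The median log2 fold change of the 7 was −0.13, beside 0.00 over all tested genes. Among all tested genes 12.5% were higher and 12.7% lower there, so the count of 2 of 7 is near the background of 25.2%. QDPR, which regenerates the biopterin cofactor, had 64.1, 84.3, 58.6 and 63.3 CPM at the high dose against 98.6, 111, 97.3 and 132 CPM in DMSO. The groups were apart, with a log2 fold change of −0.70 ± 0.12 (SE, adjusted p = 1.62e-05 by edgeR), −0.67 within replicates 1 and 3 and −0.73 within replicates 2 and 4. CYB561, a granule-membrane cytochrome that supplies ascorbate electrons for DBH, averaged 4.13 ± 0.420 CPM at the high dose and 7.11 ± 1.81 CPM in DMSO. Its log2 fold change of −0.77 ± 0.25 (SE, adjusted p = 0.0213) did not pass without DMSO replicate 2 (0.0953) or high-dose replicate 2 (0.052) or 4 (0.0522), and was −0.44 within replicates 1 and 3 and −1.07 within replicates 2 and 4; over its alternatives the adjusted p ran from 0.0119 to 0.459. MAOB and SLC22A3 had no count in any library. PNMT, which turns noradrenaline into adrenaline, had 94 counts in all, and the dopamine transporter SLC6A3 had 44, and neither was tested.

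Of 18 genes of granule cargo, processing and priming 12 were tested, with 3 higher and 1 lower than in DMSO at the high dose and a median log2 fold change of 0.12, beside 25.2% of all tested genes called. SCG2, secretogranin II, had 145, 171, 104 and 209 CPM at the high dose against 72.9, 74.2, 46.1 and 85.2 CPM in DMSO, with a log2 fold change of 1.17 ± 0.22 (SE, adjusted p = 0.000776 by edgeR). PAM, which amidates peptides, had 30.2, 22.5, 26.7 and 26.8 CPM at the high dose against 12.6, 11.8, 12.1 and 10.6 CPM in DMSO, with 1.18 ± 0.19 (SE, adjusted p = 9.07e-06). For both genes all high-dose libraries lay above all DMSO libraries and the calls held in both subsets, with 1.06 and 1.24 for SCG2 and 1.21 and 1.14 for PAM in replicates 1 and 3 and in replicates 2 and 4. CHGA and SCG2, both granule proteins, thus differed from DMSO in opposite directions.

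The other 2 granule calls were less firm. CPE, a peptide-trimming carboxypeptidase, averaged 90.8 ± 17.2 CPM at the high dose and 69.9 ± 7.71 CPM in DMSO (log2 fold change 0.38 ± 0.11, SE, adjusted p = 0.013) and did not pass without DMSO replicate 3 (0.0621) or high-dose replicate 4 (0.108). The neuropeptide NPY averaged 1.56 ± 1.16 CPM at the high dose and 4.05 ± 1.40 CPM in DMSO, with −1.35 ± 0.46 (SE, adjusted p = 0.0292), and did not pass without DMSO replicate 2 (0.108) or high-dose replicate 2 (0.115) or 3 (0.0943). Within replicates 1 and 3 CPE had a log2 fold change of 0.24 (adjusted p = 0.219) and NPY one of −0.95 (0.313). Over their alternatives the adjusted p ran from 0.000359 to 0.219 for CPE and from 0.00847 to 0.313 for NPY.

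In the combination 2 of the 12 granule genes were higher than in DMSO and 0 lower, beside 3.47% of all tested genes higher and 2.83% lower. SCG5, a chaperone of the prohormone convertase PCSK2, had 4.66, 1.21, 3.18 and 2.90 CPM in the combination against 0.190, 0.501, 0.605 and 0.800 CPM in DMSO, with 58 counts over the combination and 11 over DMSO. Its DMSO libraries held 1 to 5 counts each, near the floor of 3 counts, so the size of its fold change is uncertain. The groups did not overlap, and the log2 fold change was 2.41 ± 0.58 (SE, adjusted p = 0.00715); it was 3.24 within replicates 1 and 3 and 1.56 within replicates 2 and 4 (adjusted p = 0.471), over a range of 0.000948 to 0.471. CPE had a log2 fold change of 0.37 ± 0.11 (SE, adjusted p = 0.0418), which did not pass without DMSO replicate 1 (0.0607), 2 (0.0954) or 3 (0.155) or combination replicate 1 (0.124), 3 (0.076) or 4 (0.137), over a range of 0.00113 to 0.492. At the low dose and with prexasertib edgeR called 0 genes of these lists, beside 0.262% and 0% of all tested genes. PAM at the low dose had a log2 fold change of 0.67 ± 0.19 (SE, adjusted p = 0.206) and passed with the replicate block (0.0182).

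**Figure D4:**
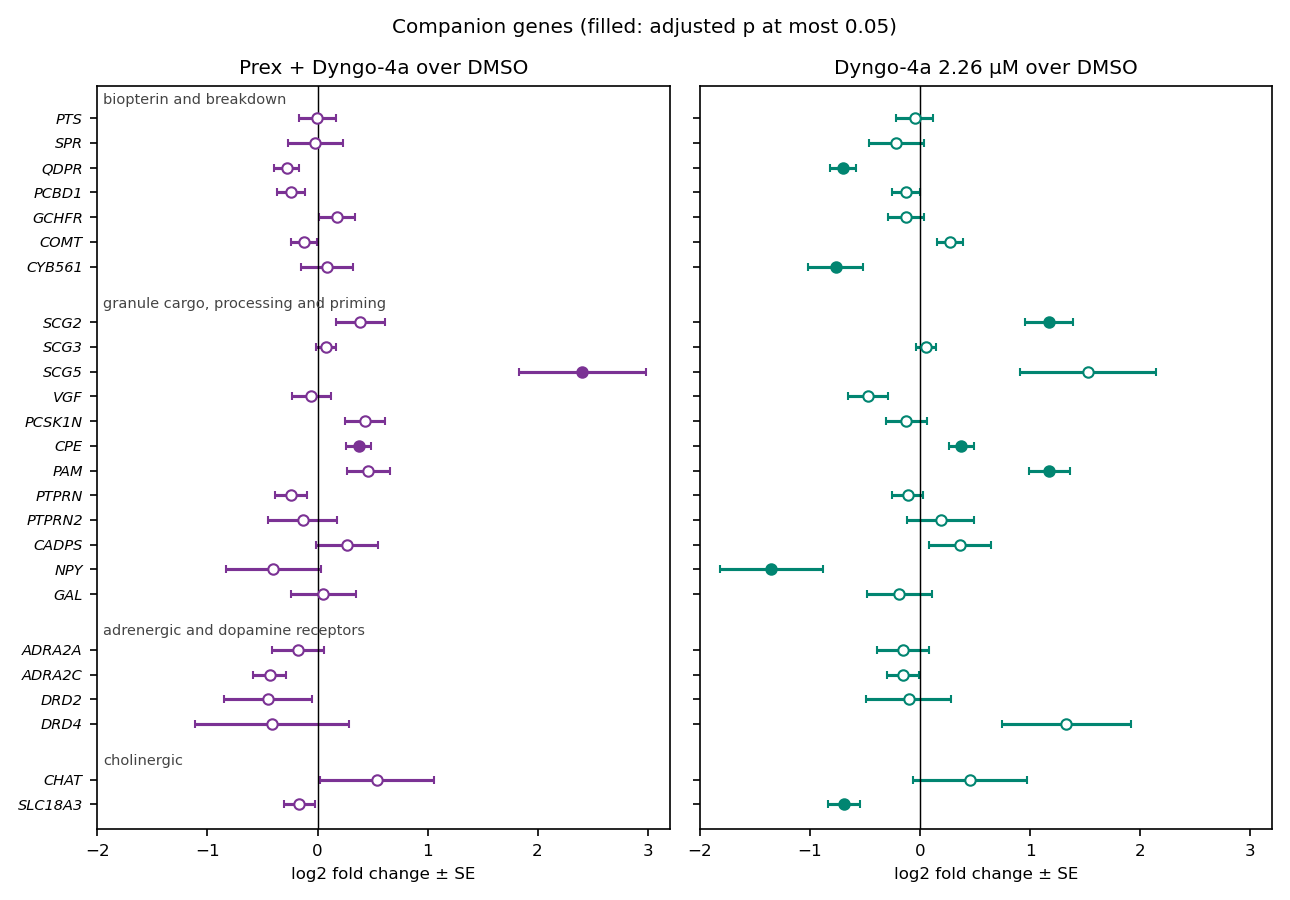
Log2 fold change of the tested genes of biopterin supply and breakdown, granules, receptors and the cholinergic system against DMSO at the high dose and in the combination, with bars for the SE; filled markers passed an adjusted p of 0.05. SCG2 and PAM stood at 1.17 and 1.18 and QDPR at −0.70 at the high dose, and SCG5 at 2.41 in the combination. SCG5 had only 1 to 5 counts in each DMSO library.

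Of the 10 transcription factors of sympathetic identity on the list 9 were tested, and at the high dose 4 were higher and 4 lower than in DMSO, with a median log2 fold change of −0.17, beside 12.5% of all tested genes higher and 12.7% lower. HAND1 had a log2 fold change of −0.91 ± 0.09 and HAND2 of −0.56 ± 0.09, while GATA2 had 0.87 ± 0.18 and PHOX2A 0.41 ± 0.10 (SE, adjusted p = 2.51e-09, 5.37e-06, 0.000342 and 0.00214 by edgeR). GATA3 at 0.23 and ISL1 at −0.31 also passed. The call of GATA3 was lost without DMSO replicate 1 or 4 or high-dose replicate 1, 3 or 4 (0.0717 to 0.118), and that of ISL1 without high-dose replicate 3 (0.0684) or 4 (0.1096). Within replicates 2 and 4 the adjusted p of PHOX2A was 0.178. In the combination GATA2 was higher than in DMSO at 0.73 ± 0.18, and HAND1 was lower at −0.38 ± 0.09 (SE, adjusted p = 0.0083 and 0.0074); within replicates 2 and 4 neither passed (0.208 and 0.114). PHOX2A is known as an activator of DBH, and whether any of these factors bears on the level of DBH was not tested.

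The genes whose levels ran most like those of the members were taken over the 20 libraries by Pearson's r of log2 CPM. For SLC6A2 they were DPP6 and TTC17, each with r = 0.93, but r over deviations from the group means was 0.45 and 0.52. For GCH1 TUBB2B (0.90) was among them, for DBH they were NOL3 (0.88) and RAB31 (0.84), and for CHGA GSTP1 (0.89) and NNAT (0.87). The r over deviations was 0.78 for TUBB2B, 0.82 for NOL3 and 0.73 for GSTP1. These are descriptions over libraries that share treatment, depth and the replicate subsets. Between members, SLC6A2 had r = −0.66 with DBH, −0.55 with CHGA and 0.60 with GCH1. These genes were all called at the high dose, and r over deviations was not computed between members. For DDC with CHGB, neither of them called at the high dose, r was 0.52. It was −0.52 for SLC18A2 with CHGA, of which CHGA was called there.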

How the data were processed

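RNA of 20 samples, in 5 groups of 4 by the labels, was measured by QuantSeq, a 3′ mRNA assay, here with molecular barcodes. The deposited values are raw counts per Ensembl gene, which the authors did not normalise. Per the submitters' processing notes, FastQC 0.11.7, STAR 2.7.2b, edgeR 3.36.0, limma 3.50.3 and the build GRCh38 were used; the sources used here do not give the annotation, the counting and strand settings or whether barcodes were collapsed. Symbols came from a reference table and coordinates from GENCODE 29.

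Genes were filtered with filterByExpr (minimum count 10, minimum total 15), scaled by TMM and fitted in 1 model with a term per group using edgeR 4.0.16 (robust quasi-likelihood F-test, 15 residual degrees of freedom) in R 4.3.3. Two-sided p-values received the Benjamini-Hochberg adjustment across the 13729 genes of each of the 8 comparisons, and 0.05 was the threshold. Log2 fold changes are given ± SE, and their 95% intervals use the 15 residual degrees of freedom only. The F-test adds prior degrees of freedom, so these intervals are wider than its p-values imply. CPM values are TMM-scaled. The edgeR steps were tested on simulated data for the high dose against DMSO only, without the replicate subsets. The other tests and the alternatives were not simulated.

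The members, lists, tests and alternatives were chosen with earlier results of these data known. All members were named, with up to 6 called genes per list and comparison and, per member, the 2 genes of highest Pearson r with mean log2 CPM of at least 3; the text names a subset, some genes are not reported here though counts and medians of lists include them, and MALAT1 falls outside the rule. Alternatives were other scalings and filters, DESeq2 1.42.0, limma-voom 3.58.1, the compared groups alone, the replicate block, the replicate subsets and leaving out each library. Correlations over deviations from group means were added after seeing the data.

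Replicate numbers were taken to pair libraries if each correlation of same-number deviations from group means was over 0.1. This held for the low dose (0.144 to 0.237) and prexasertib (0.157 to 0.213) against DMSO, the combination against prexasertib (0.115 to 0.230) and the low dose (0.144 to 0.294), and the high against the low dose (0.110 to 0.298). It comes from the data, as the labels state no pairing.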

Additional observations from a re-analysis of the deposited data

Results flagged for a closer look

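In 56 sets of 4 libraries (a gene or a summed level in a group) the highest or lowest library was checked for standing apart, which chance gives in about 1 set in 20, and 4 did. DBH had 52.3 CPM in low-dose replicate 3, against 36.0 to 38.3 CPM in the other 3 libraries of that dose; the DBH call between the high and the low dose was lost without this library. TH had 2.24 CPM in DMSO replicate 4, against 0.571 to 0.752 CPM in the other DMSO libraries, so the DMSO mean of TH leans on 14 counts of that library. SLC18A1 had 0.181 CPM in combination replicate 4 and 0 in the rest of that group, which is a single count. The summed level of the 10 genes was 835 CPM in low-dose replicate 1, against 690 to 714 CPM in the other low-dose libraries.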

How the results depend on the processing

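Among 1277 values of the tested members under the alternatives, 1147 kept both direction and side of the threshold, 41 lost the call, 13 gained one, 76 were uncalled values that changed sign and 0 called values reversed. Of the members called at the high dose against DMSO (4), 2 were called within replicates 2 and 4 alone, and 4 with any library left out. In the combination against DMSO (2) there was 1 with library sizes alone, with limma-voom and with only the compared groups, 0 within replicates 2 and 4, and 0 to 2 with a library left out. In the combination against prexasertib (1) there were 2 with no low-count filter, 4 with the replicate block, 2 with a term for replicates 1 and 3 against 2 and 4, 3 within replicates 1 and 3, 0 within replicates 2 and 4, and 0 to 2 with a library left out. At the high against the low dose (4) there were 2 within replicates 1 and 3, 1 within replicates 2 and 4, and 2 to 4 with a library left out. The other comparisons had 0 throughout these alternatives. Subsets hold 2 libraries per group, so fewer calls there come with fewer samples; the cause of the other changes was not tested.

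The replicate numbers were not read as pairing for the high dose or the combination against DMSO (lowest correlations 0.0271 and 0.0274; 3 of 4 libraries correlated best with their own number in each) or for the interaction (20 of 24). The block there gave 3 members in the combination against DMSO, CHGB with 0.00155 among them, and left the 4 at the high dose and 0 in the interaction. In the paired comparisons it changed no members' call other than those given against prexasertib. The genes called over the whole table under the block were 260 against 36 at the low dose, 23 against 0 with prexasertib, 1976 against 865 in the combination, 1374 against 472 for it over prexasertib, 1149 against 528 for it over the low dose and 167 against 39 for the interaction. With the term for replicates 1 and 3 they were 73, 4, 1427, 909, 829 and 93 in that order. Within replicates 2 and 4 they were 4 at the low dose, 221 in the combination, 104 over prexasertib, 143 over the low dose, 1 for the interaction, 2221 at the high dose (3456) and 1588 for the high over the low dose (2767); within replicates 1 and 3 the last pair had 2230 and 1457, and prexasertib had 5. Without a low-count filter the low dose had 62, prexasertib 12 and the interaction 65; DESeq2 gave 6 with prexasertib and 72 for the interaction, and the compared groups alone gave 2 with prexasertib. With library sizes alone as scaling the combination had 329 higher and 256 lower genes against the low dose, in place of 371 and 157. Depth limits TH, SLC18A1 and SLC18A2 most.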

Other observations

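The receptors that catecholamines act on were mostly at low levels. Of 11 adrenergic and dopamine receptor genes 4 were tested, and edgeR called 0 of them at either dose, with prexasertib or in the combination against DMSO. None of them passed in the other comparisons either. The autoreceptor gene ADRA2C averaged 32.8 ± 4.65 CPM in the combination and 40.1 ± 1.41 CPM at the high dose, against 44.6 ± 8.80 CPM in DMSO (SD, n = 4 each). Its log2 fold change in the combination was −0.44 against DMSO (adjusted p = 0.0754), −0.43 against prexasertib (0.102) and −0.47 against the low dose (0.069). With the replicate block ADRA2C passed in all 3 (0.00392, 0.00685 and 0.0021); over the 19 alternatives of each comparison the adjusted p ran from 0.00392 to 0.218, from 0.00685 to 0.49 and from 0.0021 to 0.275. ADRA2A averaged 11.2 ± 2.67 CPM in the combination and 11.5 ± 1.21 CPM at the high dose, against 12.7 ± 3.74 CPM in DMSO. DRD4 averaged 2.55 ± 1.54 CPM at the high dose and 1.04 ± 0.60 CPM in DMSO, with 55 counts over the high dose and 20 over DMSO.

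Of 4 genes of the cholinergic system, which some sympathetic neurons use, SLC18A3 and CHAT were tested. The choline transporter gene SLC5A7 had no count in any of the 20 libraries, and ACHE, acetylcholinesterase, averaged 0.874 ± 0.679 CPM in the combination and 0.227 ± 0.173 CPM at the high dose, against 0.325 ± 0.549 CPM in DMSO, too low to be tested. SLC18A3, the vesicular acetylcholine transporter, had 29.2, 25.8, 30.3 and 18.3 CPM at the high dose against 52.0, 36.1, 33.7 and 44.5 CPM in DMSO. All high-dose libraries lay below all DMSO libraries, with a log2 fold change of −0.69 ± 0.14 (SE, adjusted p = 0.000402 by edgeR), −0.52 within replicates 1 and 3 and −0.89 within replicates 2 and 4. CHAT, which makes acetylcholine, averaged 1.56 ± 1.07 CPM at the high dose and 1.11 ± 0.617 CPM in DMSO.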
